A study of Mus musculus with 16 samples.

Results

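Interferon-stimulated genes are followed here as 38 listed mouse genes in a map of 5-hydroxymethylcytosine (5hmC) in CD4 T cells. The members were taken by symbol. Every region of the count table whose assigned symbol was a listed gene was used, and reads were summed per gene and per gene part. This gave 236 of the 177720 regions (0.133%) and 37 of the 15544 genes with regions. Ifit1 was the 1 listed gene to which the table assigned no region. All 37 genes passed the filter on low counts, as did 193 of the 236 regions. The median region was 1054.5 bp wide for the members and 745 bp for all regions.

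TET enzymes oxidise methylated cytosine to 5hmC. In CMS-IP, bisulfite turns 5hmC into cytosine methylenesulfonate, and an antiserum against it enriches the fragments that contain it. The source was spleen and lymph nodes of Foxp3-eGFP reporter mice on C57BL/6, aged 5 to 6 weeks. The 4 groups had 2 pull-down and 2 input libraries each. TGFβ iTreg were naive CD4 T cells turned into induced regulatory T cells with TGFβ, and RA+VitC iTreg were made with TGFβ, retinoic acid and vitamin C, always given together. Treg were sorted as CD4+eGFP+ cells, and naive cells as CD4+eGFP-CD25-CD62LhiCD44lo cells. No group was cultured without TGFβ, so culture and TGFβ cannot be told apart. The labels do not say that the libraries of a group came from separate mice or cultures, so the spread behind each p-value is that between these libraries and may be technical. They also do not say whether iTreg were sorted for eGFP.

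Type I and type II interferons bind surface receptors and act through JAK kinases and STAT proteins. A complex that holds STAT2 and IRF9 binds the interferon-stimulated response element (ISRE), a repeated GAAA motif near the start of many of the genes described here, while the GAS motif serves the response to type II interferon. The proteins these genes encode sense viral nucleic acid, block viral entry and replication, carry the ubiquitin-like modifier ISG15, or process antigen. Within gene bodies, 5hmC is commonly found in transcribed genes, but the values below are enrichment of 5hmC-bearing DNA and not expression.

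The RefSeq promoter sequences (GRCm38.p6, 250 bases before to 50 after the start) held 29 of the 38 members. Dhx58, Oas2, Usp18, Rtp4, Parp14, Parp9, Mx1, Zbp1 and Ifi27l2a were not among them. The ISRE core searched was GAAA, any 2 bases and GAAA again, on both strands. It occurred near the start of 12 of these 29 members, against 3.99% of 27025 genes (3.44% of 32851 promoters). The GAS motif TTCNNNGAA, which reads the same on both strands, occurred in 8 of the 29, against 9.55% of genes. Overlapping ISRE matches were counted separately, and none of these matches is shown to be a binding site. The windows of members that the results turn on are shown to let the elements be compared, with the matches in capitals, each on the gene's own strand and 5′ to 3′.
Isg15, 3 overlapping matches: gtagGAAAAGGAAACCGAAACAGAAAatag
Ifitm3, 2 matches just after the start: gGAAAAGGAAActtctgaGAAACCGAAAct
Ifit3, the more distant match: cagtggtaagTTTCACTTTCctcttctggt
Ifit3, the nearer match: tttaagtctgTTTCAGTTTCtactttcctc
Stat2: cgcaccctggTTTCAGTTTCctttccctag
Ifih1: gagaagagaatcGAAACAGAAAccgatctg
Eif2ak2: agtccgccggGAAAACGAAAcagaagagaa
In GRCm38.p6 the Isg15 window is chr4:156200871-156200900 on the minus strand, with its matches from base -78 to base -57 relative to the start. The Ifitm3 window is chr7:141010714-141010743 on the minus strand, with matches from base 3 to base 29 after the start. The Ifit3 windows are chr19:34583363-34583392 and chr19:34583397-34583426 on the plus strand, Stat2 is chr10:128270266-128270295 on the plus strand, Ifih1 is chr2:62646206-62646235 on the minus strand and Eif2ak2 is chr17:78882535-78882564 on the minus strand. The 5hmC regions are on another build (mm9), so no window was placed inside or outside a region. Of the 11 motif-bearing members with regions, 2 were higher and 3 lower in TGFβ iTreg than in naive cells (edgeR, adjusted p under 0.05), beside 3 higher and 10 lower of the 17 members whose windows held no match; among all genes tested, 23.4% were higher and 18.1% lower. These counts were, for RA+VitC iTreg over naive cells, 1 higher and 5 lower of 11, beside 3 higher and 11 lower of 17, with 29.2% and 26.6% of all genes. For Treg over naive cells they were 3 higher and 4 lower of 11, beside 0 higher and 8 lower of 17, with 20.3% and 18.9% of all genes. The difference between members with and without a match was not tested.

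Reads in regions numbered 1648804 to 9731897 per pull-down, TGFβ iTreg being the shallowest (1648804 and 2114056), and 1028822 to 1563165 per input. Levels are given as CPM, reads scaled to the library's total in regions. A gene with no read in a library could still stand at the level of 3 reads, 1.42 to 1.82 CPM in TGFβ iTreg, 0.751 to 0.784 CPM in RA+VitC iTreg, 0.359 to 0.391 CPM in Treg and 0.308 to 0.386 CPM in naive cells. These floors cover counting error only. As a check on the labels, 5hmC over Foxp3 averaged 17.1 CPM in TGFβ iTreg, 40.8 CPM in RA+VitC iTreg, 36.2 CPM in Treg and 15.1 CPM in naive cells.

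Over the whole list, 5hmC was lower in each of the other groups than in naive cells at more genes than it was higher, with the Ifitm genes as a large exception. Member regions took 0.187% and 0.19% of the reads of TGFβ iTreg. The share was 0.163% and 0.167% of RA+VitC iTreg reads, 0.192% and 0.194% of Treg reads, and 0.222% of reads from both naive libraries. Without Ifitm1 and Ifitm3 it was 0.15% and 0.152% of TGFβ iTreg reads, 0.136% and 0.14% of RA+VitC iTreg reads, 0.187% and 0.188% of Treg reads, and 0.218% and 0.217% of reads from naive cells. In the inputs, the share was 0.166% to 0.177% in every group. The pull-down shares thus did not overlap between groups, but those of TGFβ iTreg (up to 0.19%) and Treg (from 0.192%) nearly touched. The TGFβ iTreg shares rested on 3087 and 4012 member reads. Without Ifitm1 and Ifitm3 these groups lay further apart. The input shares did not separate the groups. In bulk samples, fewer cells of a type and less 5hmC per cell cannot be told apart.

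In TGFβ iTreg over naive cells, 5 members were higher and 20 lower of 37, where 23.4% of all 14952 genes tested were higher and 18.1% lower (edgeR, adjusted p under 0.05). The median log2 fold change was -0.33 over members and -0.02 over all genes. Without the second TGFβ iTreg library the count of higher members was 3. Without Ifitm1 and Ifitm3, 3 were higher and 20 lower of 35. In RA+VitC iTreg over naive cells, 4 members were higher and 23 lower, against 29.2% and 26.6% of all genes, and the medians were -0.42 and -0.02. In Treg over naive cells, 3 members were higher and 17 lower, against 20.3% and 18.9% of all genes, and the medians were -0.20 and 0. The 3 comparisons share the naive libraries. With the pull-downs thinned to equal depth, 9 members were lower in Treg, and with DESeq2 10.

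The highest of the 4 group means was that of TGFβ iTreg for 7 of the 37 members, RA+VitC iTreg for 2, Treg for 8 and naive cells for 20, where the shares of all genes were 21.4%, 27.6%, 21.9% and 29%. The lowest was that of TGFβ iTreg for 13 members, RA+VitC iTreg for 15, Treg for 6 and naive cells for 3, where the shares of all genes were 24.5%, 29.4%, 18.6% and 27.4%. Per kilobase of region, the median member level was 3.21 CPM in TGFβ iTreg, 2.92 CPM in RA+VitC iTreg, 3.45 CPM in Treg and 4.22 CPM in naive cells. As gene sums, Bst2, Cmpk2, Dhx58, Gbp2 and Irf7 passed the threshold in none of the 6 comparisons between groups, as did 23.9% of all genes.

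**Figure D1:**
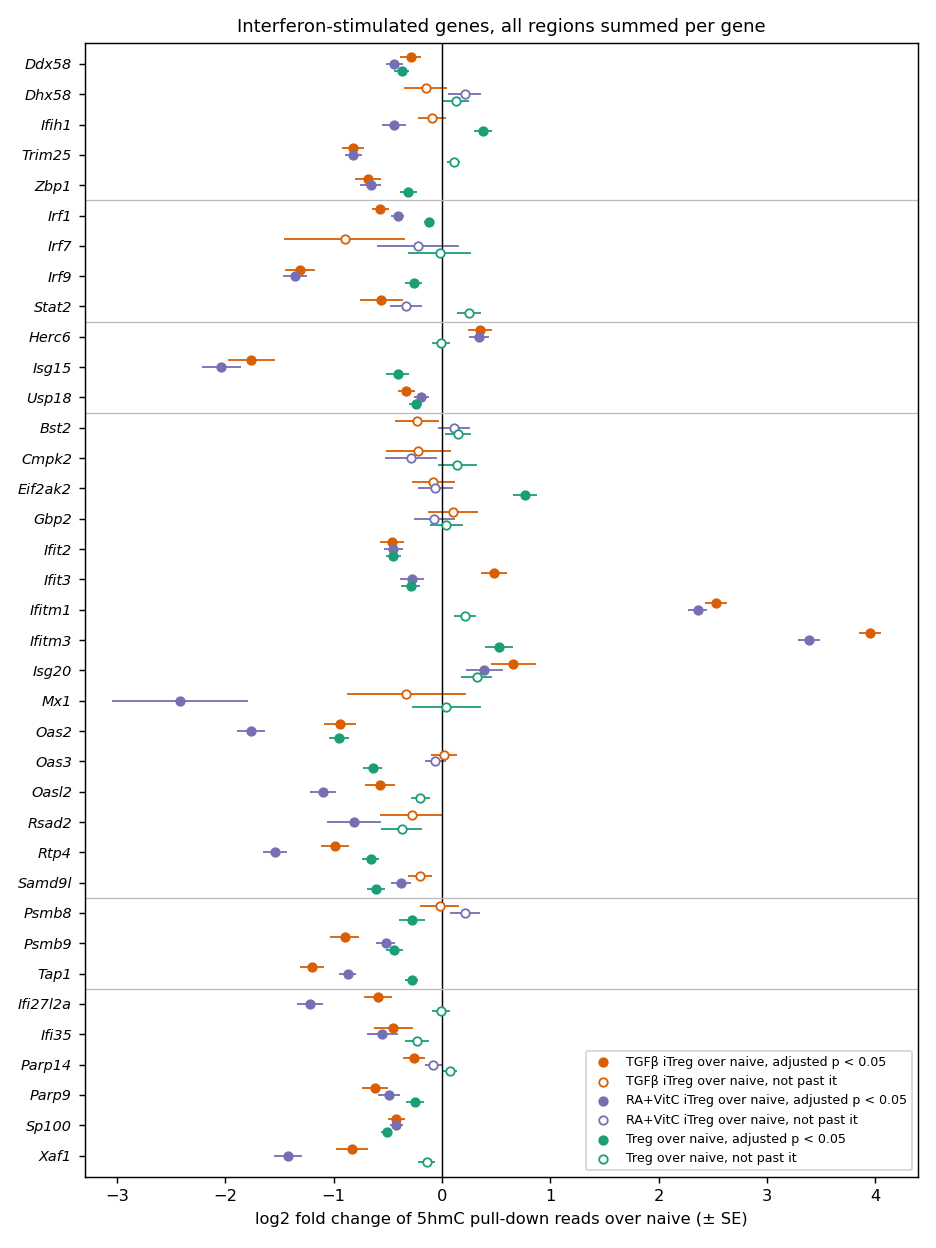
Log2 fold change of summed pull-down reads over naive cells (x axis, ± SE) for each of the 37 members with regions, grouped by role as in the text. Filled points passed an adjusted p of 0.05 and open points did not; most points lie left of 0, with Ifitm1 and Ifitm3 far to the right in both iTreg groups (2.53 and 3.95 in TGFβ iTreg).

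Among the sensors of viral nucleic acid, none of 5 was higher in either iTreg group than in naive cells as a gene sum. Of all genes, 23.4% were higher and 18.1% lower in TGFβ iTreg, and 29.2% and 26.6% in RA+VitC iTreg. Ddx58 (RIG-I), Trim25, the ubiquitin ligase that helps activate it, and Zbp1, a sensor of Z-form nucleic acid, were lower in both. Trim25 had the largest loss, with log2 fold changes of -0.82 ± 0.10 (SE) in TGFβ iTreg cells and -0.82 ± 0.08 in RA+VitC iTreg over naive cells (adjusted p = 1.1e-12 and 7.2e-18), and 0.11 ± 0.06 in Treg (adjusted p = 0.13). The loss lay in the body of the gene (-0.90 and -0.97), while the start gave 0.18 in TGFβ iTreg (adjusted p = 0.7) and was higher in RA+VitC iTreg (0.68, adjusted p = 0.0045). Zbp1 fell by 0.68 in TGFβ iTreg, 0.66 in RA+VitC iTreg and 0.31 in Treg on the log2 scale. Ifih1 (MDA5), the sensor of long double-stranded RNA, was higher in Treg than in naive cells (0.38 ± 0.08, adjusted p = 5.5e-05) and lower in RA+VitC iTreg (-0.44 ± 0.11, adjusted p = 5e-04). Of its 9 tested regions, 3 were higher and 1 lower in TGFβ iTreg than in naive cells (13.1% and 8.22% of all regions). In RA+VitC iTreg, 2 were higher and 2 lower (21.9% and 15.8%). Dhx58 (LGP2) was called in no comparison. Leaving out the first TGFβ iTreg library or the first naive library ended the Ddx58 call in TGFβ iTreg (adjusted p = 0.12 and 0.092), leaving out the first RA+VitC iTreg library that of Ifih1 in RA+VitC iTreg (0.091), and leaving out the second naive library that of Zbp1 in Treg (0.13).

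Of the 4 transcription factors of the response, 3 were lower in TGFβ iTreg than in naive cells and 2 in RA+VitC iTreg. Of all genes, 18.1% and 26.6% were lower in these comparisons. Irf9, the DNA-binding partner of STAT2, had 23.3 and 31 CPM in TGFβ iTreg, 27.9 and 25.4 CPM in RA+VitC iTreg, 56.7 and 57.6 CPM in Treg, and 70 and 67 CPM in naive cells. The iTreg libraries lay below all Treg and naive libraries, and Treg lay between iTreg and naive cells. The log2 fold change over naive cells was -1.31 ± 0.14 in TGFβ iTreg (adjusted p = 3.9e-15), -1.36 ± 0.11 in RA+VitC iTreg (2.2e-22) and -0.26 ± 0.08 in Treg (adjusted p = 0.003). The Treg call was lost with DESeq2 (adjusted p = 0.13), with thinned counts (0.053), by gene ID (0.05) and without the first naive library (0.051). Nearly all of the Irf9 reads came from 1 region over its start and body (mm9 chr14:56223510-56230859), with mean levels of 24.3, 25.4, 53.3 and 66.1 CPM in TGFβ iTreg, RA+VitC iTreg, Treg and naive cells. The upstream region on the Irf9 promoter, which the table assigns to its neighbour Rnf31, averaged 23.8 CPM in TGFβ iTreg, 34.2 CPM in RA+VitC iTreg, 38.4 CPM in Treg and 37.9 CPM in naive cells, and was lower only in TGFβ iTreg among these 3 comparisons with naive cells (-0.67 ± 0.17, adjusted p = 0.00076).

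Irf1, an activator induced through GAS sites, fell by 0.57 in TGFβ iTreg, 0.41 in RA+VitC iTreg and 0.12 in Treg on the log2 scale over naive cells, the last at an adjusted p of 0.048 that was lost under 7 alternatives, among them leaving out the second Treg library (0.5) or either naive library (0.16 and 0.22). Stat2 was lower in TGFβ iTreg (-0.56 ± 0.20, adjusted p = 0.018) and gave -0.33 ± 0.15 in RA+VitC iTreg (adjusted p = 0.058) and 0.25 ± 0.11 in Treg (adjusted p = 0.066). The Stat2 call in TGFβ iTreg was lost without the first or second TGFβ iTreg library (adjusted p = 0.055 and 0.21) and without the second naive library (0.16). A further region over the Stat2 promoter and transcript, assigned to Apof, was higher in Treg than in naive cells (0.43 ± 0.13, adjusted p = 0.01). Taking in that region by gene ID was an alternative added after the data were seen. Stat2 then gave -0.58 ± 0.16, -0.08 ± 0.12 and 0.33 ± 0.09 over naive cells in TGFβ iTreg, RA+VitC iTreg and Treg (adjusted p = 0.002, 0.6 and 0.0014). Irf7, the master factor of the late type I response, had 1 assigned region, which was called nowhere. This region held 3 and 4 reads in TGFβ iTreg and 12 and 10 in RA+VitC iTreg. A further region over the Irf7 transcript, assigned to its neighbour Phrf1, was lower in RA+VitC iTreg than in naive cells (-0.75 ± 0.18, adjusted p = 0.00028). It averaged 13.4, 11.3, 16.6 and 18.8 CPM in TGFβ iTreg, RA+VitC iTreg, Treg and naive cells. A region on the Irf7 promoter, assigned to Cdhr5, was not called over naive cells. By gene ID, Irf7 gave -0.45 ± 0.13 in RA+VitC iTreg over naive cells (adjusted p = 0.0026). The values were -0.15 ± 0.16 in TGFβ iTreg and -0.23 ± 0.10 in Treg (0.49 and 0.077).

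In the ISG15 system, Isg15 itself was the member with the largest loss in TGFβ iTreg, and Herc6, the mouse ligase that attaches ISG15 to proteins, was higher in both iTreg groups. Isg15 had 8.38 and 9.2 CPM in TGFβ iTreg, 6.77 and 7.81 CPM in RA+VitC iTreg, 22.2 and 22.8 CPM in Treg, and 29 and 30.7 CPM in naive cells. Every iTreg library lay below every Treg library, and every Treg library below both naive libraries. The log2 fold change over naive cells was -1.76 ± 0.22 in TGFβ iTreg (adjusted p = 7.8e-12), -2.04 ± 0.18 in RA+VitC iTreg (4e-20) and -0.41 ± 0.11 in Treg (0.00097), the last lost with DESeq2 (adjusted p = 0.12) and with thinned counts (0.07). All of it came from 1 region of 3290 bp over the gene's start and body (mm9 chr4:155572266-155575555). Next to it lies a separate region of the Isg15 promoter, assigned to AW011738, which gave -2.23 ± 0.39 in TGFβ iTreg, -1.63 ± 0.28 in RA+VitC iTreg and -0.21 ± 0.17 in Treg (adjusted p = 3.4e-07, 4.2e-08 and 0.38).

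Herc6 had log2 fold changes of 0.35 ± 0.11 in TGFβ iTreg cells and 0.34 ± 0.09 in RA+VitC iTreg over naive cells (adjusted p = 0.0072 and 0.00079) and -0.01 ± 0.08 in Treg (0.95). The first of these calls was lost without the second TGFβ iTreg library (adjusted p = 0.21), without the second naive library (0.061), with DESeq2 (0.059) and with thinned counts (0.071), and the RA+VitC iTreg call without TMM (0.076) and with thinned counts (0.086). The gain lay in the body (0.48 and 0.52), while the start was lower in RA+VitC iTreg (-0.60, adjusted p = 0.013). One intronic region of 284 bp (mm9 chr6:57438043-57438326) had 1.72 and 0.965 CPM in TGFβ iTreg, 2.82 and 4.32 CPM in RA+VitC iTreg, 1.35 and 1.25 CPM in Treg, and no read in either naive library. This region was singled out after its values were seen. Usp18, the protease that removes ISG15, fell by 0.33, 0.19 and 0.24 in TGFβ iTreg, RA+VitC iTreg and Treg on the log2 scale. Leaving out the first TGFβ iTreg library ended the first of these calls (adjusted p = 0.055), the second RA+VitC iTreg or first naive library the second (0.092 and 0.21) and the first naive library the third (0.068).

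The 17 antiviral effectors held both extremes of the list. Of the 16 with regions, 4 were higher and 4 lower in TGFβ iTreg than in naive cells, 3 higher and 8 lower in RA+VitC iTreg, and 2 higher and 6 lower in Treg. Of all genes, 23.4% were higher and 18.1% lower in the first of these comparisons, 29.2% and 26.6% in the second, and 20.3% and 18.9% in the third. Ifitm3, a membrane protein that blocks the fusion of viruses with endosomes, had 214 and 224 CPM in TGFβ iTreg, 152 and 145 CPM in RA+VitC iTreg, 21.3 and 19.7 CPM in Treg, and 14.7 and 13.8 CPM in naive cells. The groups followed each other in that order with no overlap. The log2 fold change over naive cells was 3.95 ± 0.10 in TGFβ iTreg (adjusted p = 7.8e-70), 3.39 ± 0.10 in RA+VitC iTreg (1.2e-65) and 0.53 ± 0.13 in Treg (0.00026), the last lost with thinned counts (0.30, adjusted p = 0.5).

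Ifitm1, its relative at the plasma membrane, had 155 and 161 CPM in TGFβ iTreg, 133 and 148 CPM in RA+VitC iTreg, 28.1 and 34.9 CPM in Treg, and 26.3 and 28.1 CPM in naive cells. The iTreg libraries stood above all others, whereas Treg and naive cells touched at 28.1 CPM. Its log2 fold change over naive cells was 2.53 ± 0.10 in TGFβ iTreg, 2.36 ± 0.09 in RA+VitC iTreg and 0.21 ± 0.10 in Treg (adjusted p = 6.3e-49, 1.9e-52 and 0.088). The pull-down CPM over Ifitm3, scaled by TMM, was 6.68 times the unscaled input CPM in TGFβ iTreg and 3.56 times in RA+VitC iTreg. It was 0.747 times the input CPM in Treg and 0.347 times in naive cells. Ifitm3 thus had the lowest pull-down to input ratio of all members in naive cells and the highest in both iTreg groups.

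The gain was not confined to 1 element. The 14 adjoining regions assigned to Ifitm1 and Ifitm3 span 50.8 kb (mm9 chr7:148147459-148198290). Of these, 12 were higher in TGFβ iTreg cells and 13 in RA+VitC iTreg than in naive cells, with none lower. Of all regions, 13.1% and 21.9% were higher in these comparisons. The region over the Ifitm3 start and body (mm9 chr7:148191877-148198290) averaged 100 CPM in TGFβ iTreg, 72 CPM in RA+VitC iTreg, 12.9 CPM in Treg and 8.75 CPM in naive cells. Among member regions with a read in naive cells, the largest fold change of both iTreg groups over naive cells was at an intergenic region 16.7 kb from that start (mm9 chr7:148179048-148180866), with 88.1, 57.1, 4.24 and 2.1 CPM in TGFβ iTreg, RA+VitC iTreg, Treg and naive cells. Its log2 fold change was 5.43 ± 0.19 in TGFβ iTreg cells and 4.79 ± 0.19 in RA+VitC iTreg over naive cells (adjusted p = 1.1e-174 and 1.6e-142).

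Neighbouring genes within 50 kb, looked at after these values were seen, were higher to differing degrees, and not in every comparison. Ifitm2, with 1 region, gave log2 fold changes over naive cells of 3.74 ± 0.22 in TGFβ iTreg, 2.98 ± 0.22 in RA+VitC iTreg and 1.03 ± 0.25 in Treg. Ifitm6 gave 2.17 ± 0.14, 2.12 ± 0.12 and 1.25 ± 0.11, and Pgghg, on the other side of the cluster, 1.58 ± 0.09, 1.27 ± 0.08 and 0.37 ± 0.08 in the same 3 comparisons. B4galnt4, beyond Ifitm6, gave 0.71 ± 0.09, 0.39 ± 0.08 and 0.18 ± 0.07. Nlrp6, at the other end, gave 0.76 ± 0.30 in TGFβ iTreg, -0.01 ± 0.27 in RA+VitC iTreg (adjusted p = 0.98) and 1.44 ± 0.17 in Treg. At Ifitm6 the 5 regions differed among themselves. The nearest, 7.3 kb from the Ifitm3 start, averaged 9.13 CPM in TGFβ iTreg, 18.3 CPM in RA+VitC iTreg, 3.39 CPM in Treg and 1.58 CPM in naive cells. The farthest, at 22.2 kb, averaged 3.46, 2.42, 7.98 and 3.81 CPM in TGFβ iTreg, RA+VitC iTreg, Treg and naive cells and was higher in Treg alone of the 3 groups set against naive cells. In Treg, 4 of the 5 Ifitm6 regions and 4 of the 14 Ifitm1 and Ifitm3 regions were higher than in naive cells, against 13% of all regions.

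**Figure D2:**
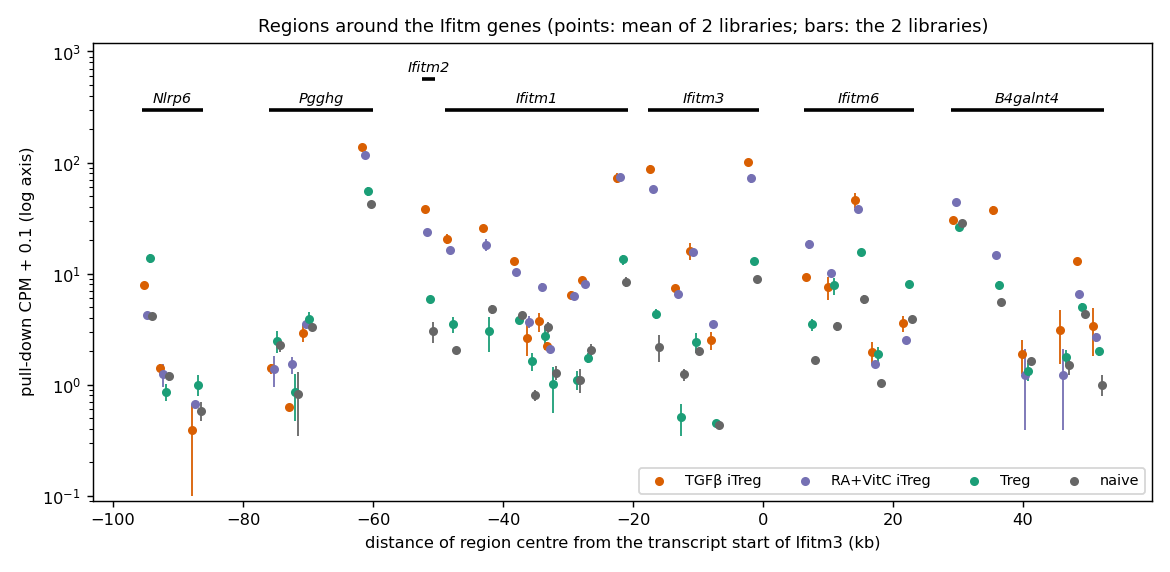
Pull-down level of each region (y axis, CPM plus 0.1, log scale) against the distance of its centre from the transcript start of Ifitm3 (x axis, kb). Points are means of 2 libraries and bars join the 2 libraries; black lines mark the regions assigned to each gene. Between Ifitm2 and Ifitm6 the TGFβ iTreg and RA+VitC iTreg points stand above Treg and naive points at most regions, up to 100 and 72 CPM at the Ifitm3 start against 12.9 and 8.75 CPM.

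Ifit3, of the family that binds viral RNA, was the member whose direction differed between the iTreg groups. It had 67 and 62 CPM in TGFβ iTreg, 36.5 and 39.1 CPM in RA+VitC iTreg, 40.6 and 34.5 CPM in Treg, and 44 and 47.6 CPM in naive cells. TGFβ iTreg lay above every other library. Over naive cells its log2 fold change was 0.48 ± 0.12 in TGFβ iTreg (adjusted p = 0.00034), -0.28 ± 0.11 in RA+VitC iTreg (0.021) and -0.29 ± 0.09 in Treg (0.0045); the last 2 calls were lost with DESeq2 (adjusted p = 0.14 and 0.12), with thinned counts (0.11 and 0.057) and without the second naive library (0.16 and 0.13), the RA+VitC iTreg call also without the first RA+VitC iTreg library (0.18) and the Treg call without the second Treg library (0.22). The gain in TGFβ iTreg came from the region over its start and body (mm9 chr19:34657355-34663038), which averaged 50.2, 31.3, 23.6 and 32.8 CPM in TGFβ iTreg, RA+VitC iTreg, Treg and naive cells.

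Ifit2, of the same family, fell by 0.46, 0.45 and 0.45 on the log2 scale in TGFβ iTreg, RA+VitC iTreg and Treg over naive cells. Its TGFβ iTreg call was lost without the second TGFβ iTreg library (adjusted p = 0.082). Ifit1 could be measured through 5 regions that carry its gene ID but that the table assigns to Ifit1bl1, an alternative added after the data were seen. It then had 30.5 and 24.7 CPM in TGFβ iTreg, 17.9 and 18.4 CPM in RA+VitC iTreg, 39.2 and 36.8 CPM in Treg, and 48.8 and 44.7 CPM in naive cells. The groups did not overlap, and the log2 fold change over naive cells was -0.77 ± 0.15, -1.36 ± 0.13 and -0.29 ± 0.09 in TGFβ iTreg, RA+VitC iTreg and Treg (adjusted p = 5.8e-06, 8.4e-18 and 0.0044). The Ifit genes are near-identical in part and their reads may be shared, so these values are uncertain.

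Of the OAS proteins, which make the 2′-5′ oligoadenylate that activates RNase L, Oas2 fell most. It had 25.7 and 28.6 CPM in TGFβ iTreg, 15.7 and 15.3 CPM in RA+VitC iTreg, 24.9 and 29.1 CPM in Treg, and 50.9 and 53.9 CPM in naive cells. TGFβ iTreg and Treg overlapped, RA+VitC iTreg lay below them and naive cells above. Relative to naive cells Oas2 gave -0.94 ± 0.15 in TGFβ iTreg (adjusted p = 1.9e-08), -1.76 ± 0.13 in RA+VitC iTreg (1.9e-24) and -0.95 ± 0.09 in Treg (5.4e-17). The strongest of its 10 regions lay over its start (mm9 chr5:121198173-121201743), with 9.09, 5.42, 10.3 and 23.7 CPM in TGFβ iTreg, RA+VitC iTreg, Treg and naive cells.

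Oasl2, a related protein, had 33.5 and 30 CPM in TGFβ iTreg, 23.5 and 20.4 CPM in RA+VitC iTreg, 42.5 and 39.4 CPM in Treg, and 47.8 and 46.3 CPM in naive cells. The groups stood apart in that order of level, RA+VitC iTreg lowest. It fell by 0.57 ± 0.14 in TGFβ iTreg cells and 1.10 ± 0.12 in RA+VitC iTreg on the log2 scale (adjusted p = 4.2e-04 and 4.6e-14). As a gene sum, Oas3, adjacent to Oas2, was lower in Treg alone of the 3 groups over naive cells (-0.64 ± 0.09, adjusted p = 3.5e-10). It gave 0.02 ± 0.12 in TGFβ iTreg cells and -0.06 ± 0.10 in RA+VitC iTreg. A region on the Oas3 promoter, assigned to Oas1e, was lower in RA+VitC iTreg (-0.84 ± 0.20, adjusted p = 0.00014) and in Treg (-1.03 ± 0.16, 2.3e-09). In TGFβ iTreg it gave -0.45 ± 0.23 (0.16).

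Rtp4, a receptor-transporting protein, had 33.5 and 36.8 CPM in TGFβ iTreg, 24.4 and 23.7 CPM in RA+VitC iTreg, 46.8 and 42 CPM in Treg, and 71 and 69.3 CPM in naive cells. The groups did not overlap, with naive cells well above the rest. Relative to naive cells Rtp4 gave log2 fold changes of -0.99 ± 0.13 in TGFβ iTreg, -1.54 ± 0.11 in RA+VitC iTreg and -0.66 ± 0.08 in Treg (adjusted p = 4.7e-11, 1.1e-25 and 1.2e-12). Its main region (mm9 chr16:23610947-23618342, in the body) averaged 21.8, 12.4, 28.9 and 49.3 CPM in TGFβ iTreg, RA+VitC iTreg, Treg and naive cells. A small region 69.6 kb downstream of the start moved the other way, with 2.35, 1.99, 0.237 and 0.111 CPM in the same order of groups. The Treg and naive means lay below the level of 3 reads (0.359 to 0.391 CPM and 0.308 to 0.386 CPM). That of TGFβ iTreg was little above its own (1.42 to 1.82 CPM), so the size of this difference is uncertain.

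Mx1, a dynamin-like GTPase that blocks viral ribonucleoproteins, was scarce, with 2 regions and 705 bp. It had 2.99 and 1.94 CPM in TGFβ iTreg, 0.541 and 0.558 CPM in RA+VitC iTreg, 4.14 and 2.19 CPM in Treg, and 3.59 and 2.57 CPM in naive cells. Both RA+VitC iTreg libraries held 2 reads, against 29 and 26 in naive cells. The ratio of RA+VitC iTreg to naive cells was 0.182 (95% exact counting interval 0.0479 to 0.493), and the fit gave an adjusted p of 0.00055.

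Eif2ak2 (PKR), the kinase that shuts down translation on binding double-stranded RNA, had the largest gain of the list in Treg. It had 16.2 and 17 CPM in TGFβ iTreg, 19.2 and 14.2 CPM in RA+VitC iTreg, 31.2 and 28.7 CPM in Treg, and 16.7 and 18.1 CPM in naive cells. Treg stood above all others, which overlapped. Its log2 fold change over naive cells was 0.77 ± 0.11 in Treg (adjusted p = 4.9e-09), -0.08 ± 0.20 in TGFβ iTreg cells (0.8) and -0.06 ± 0.16 in RA+VitC iTreg (0.77). The gain lay in 1 body region (mm9 chr17:79271689-79275704), with 8.5, 7.55, 17.5 and 8.01 CPM in TGFβ iTreg, RA+VitC iTreg, Treg and naive cells.

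Of the remaining effectors, Isg20, a 3′-5′ exonuclease, was higher in TGFβ iTreg (0.66 ± 0.21, adjusted p = 0.0051; 0.24 without the second TGFβ iTreg library) and narrowly so in RA+VitC iTreg (0.39 ± 0.17, adjusted p = 0.049, lost under 9 alternatives, leaving out either library of RA+VitC iTreg or of naive cells among them) than in naive cells. Rsad2 (viperin), which makes a chain-terminating nucleotide, fell by 0.81 ± 0.25 in RA+VitC iTreg on the log2 scale (adjusted p = 0.0041; 0.054 without the first RA+VitC iTreg library). Samd9l fell by 0.38 in RA+VitC iTreg (adjusted p = 0.00026; 0.1 without the first RA+VitC iTreg library) and 0.61 in Treg, and gave -0.20 ± 0.11 in TGFβ iTreg (adjusted p = 0.16). As gene sums, Bst2 (tetherin), Cmpk2 and the GTPase Gbp2 passed the threshold in no comparison. In RA+VitC iTreg over naive cells, 1 of 3 Bst2 regions was higher and 1 of 6 tested Gbp2 regions lower. Of all regions, 21.9% were higher and 15.8% lower there. A region over the Gbp2 promoter and transcript, assigned to Gbp2b, was higher in that comparison (0.71 ± 0.20, adjusted p = 0.0013).

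The 3 antigen-processing genes lie side by side on chromosome 17 and the regions of Tap1 also carry the gene ID of Psmb8, so they are not independent. Tap1, a subunit of the peptide transporter for MHC class I, had 39.5 and 51.3 CPM in TGFβ iTreg, 60.6 and 55 CPM in RA+VitC iTreg, 84.1 and 90.3 CPM in Treg, and 105 and 107 CPM in naive cells. The groups stood apart in that order of level. It fell by 1.2 ± 0.11 in TGFβ iTreg, 0.87 ± 0.08 in RA+VitC iTreg and 0.28 ± 0.06 in Treg on the log2 scale (adjusted p = 4.8e-18, 2e-17 and 0.00015; the last 0.4 with thinned counts). Nearly all of it came from the region over its start (mm9 chr17:34325330-34333273). Per kilobase of region, Tap1 had the highest level of all members in naive cells, 12.6 CPM.

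Psmb9, an immunoproteasome subunit whose promoter faces that of Tap1, had 40.1 and 40.7 CPM in TGFβ iTreg, 59 and 45.8 CPM in RA+VitC iTreg, 57.8 and 53.4 CPM in Treg, and 71.8 and 78.1 CPM in naive cells. TGFβ iTreg was lowest, and RA+VitC iTreg and Treg overlapped. It fell by 0.90 ± 0.13, 0.52 ± 0.09 and 0.44 ± 0.08 on the log2 scale over naive cells in TGFβ iTreg, RA+VitC iTreg and Treg. Psmb8, the third gene, gave -0.02 ± 0.18 in TGFβ iTreg cells and 0.21 ± 0.14 in RA+VitC iTreg over naive cells and was lower in Treg (-0.28 ± 0.12, adjusted p = 0.047), a call lost under 7 alternatives, among them leaving out either Treg or either naive library.

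All 6 of the other members were lower in TGFβ iTreg than in naive cells, 5 in RA+VitC iTreg and 2 in Treg. Of all genes, 18.1%, 26.6% and 18.9% were lower in these comparisons. Xaf1, a partner of the apoptosis inhibitor XIAP, had 31.7 and 25.2 CPM in TGFβ iTreg, 17.6 and 19.8 CPM in RA+VitC iTreg, 43.3 and 47.6 CPM in Treg, and 48.1 and 51.7 CPM in naive cells. Both iTreg groups lay below Treg and naive cells. It fell by 0.83 ± 0.15 in TGFβ iTreg cells and 1.42 ± 0.13 in RA+VitC iTreg on the log2 scale (adjusted p = 6.7e-07 and 2.5e-19), mostly in the body (-0.83 and -1.53).

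Ifi27l2a, a small protein strongly induced by interferon, had 35.9 and 39.2 CPM in TGFβ iTreg, 23.5 and 25.4 CPM in RA+VitC iTreg, 58.8 and 54.6 CPM in Treg, and 55.6 and 58.1 CPM in naive cells. Treg and naive cells overlapped, and both iTreg groups lay below. It fell by 0.59 ± 0.13 in TGFβ iTreg cells and 1.22 ± 0.12 in RA+VitC iTreg on the log2 scale (adjusted p = 6.7e-05 and 5.1e-18), again in the body (-0.70 and -1.41) and not past the threshold at its start (-0.16 and -0.21). Sp100, a component of nuclear bodies, fell by 0.42, 0.42 and 0.51 in TGFβ iTreg, RA+VitC iTreg and Treg, and Parp9, an ADP-ribosyltransferase family member, by 0.62, 0.49 and 0.25, the last lost without the first Treg library (adjusted p = 0.082). Ifi35, a partner of NMI, fell by 0.45 in TGFβ iTreg cells and 0.55 in RA+VitC iTreg, calls lost without either TGFβ iTreg library or the second naive library (adjusted p = 0.16, 0.14 and 0.078) and without the first RA+VitC iTreg library (0.13). A region over the Ifi35 promoter and transcript, assigned to Rpl27, gave -0.61 ± 0.21 in TGFβ iTreg (adjusted p = 0.019). In RA+VitC iTreg it gave 0.11 ± 0.15 (0.58), and in Treg -0.17 ± 0.12 (0.33). Parp14, a relative of Parp9, gave -0.26 ± 0.10 in TGFβ iTreg (adjusted p = 0.031, lost on leaving out any TGFβ iTreg or naive library) and -0.08 ± 0.08 in RA+VitC iTreg, where its body fell by 0.52 and its intergenic regions rose by 1.04 on the log2 scale.

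**Figure D3:**
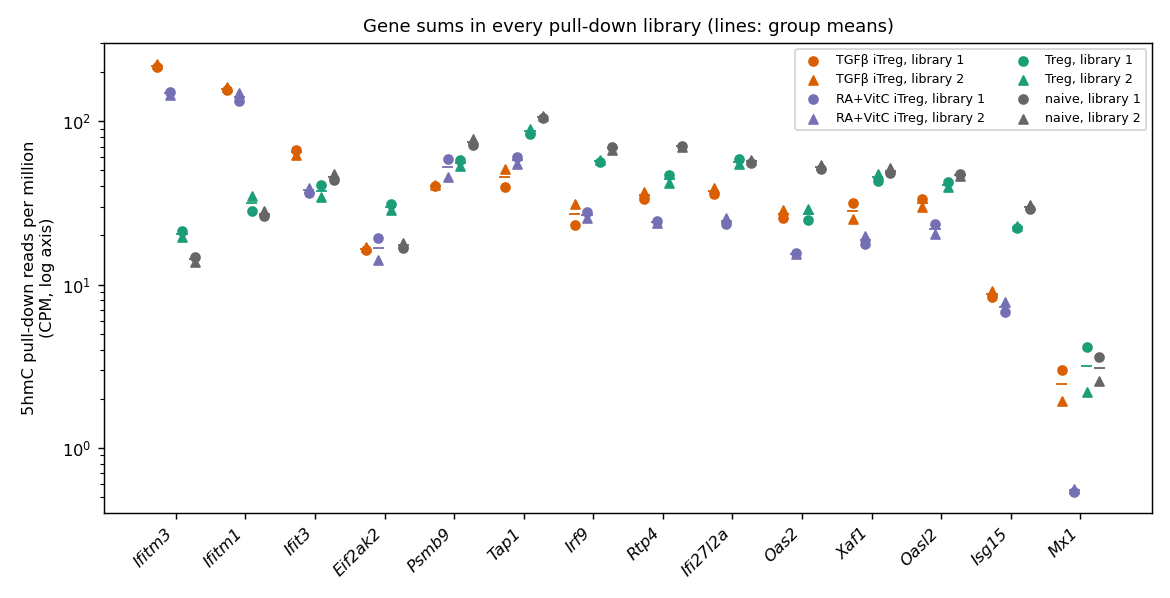
Pull-down CPM (y axis, log scale) in each of the 8 libraries for the 14 members described with all values; circles and triangles are the 2 libraries of a group and lines their mean. Ifitm3 and Ifitm1 lie at 133 to 224 CPM in the iTreg libraries and at 13.8 to 34.9 CPM in Treg and naive libraries, while Irf9, Isg15 and Tap1 are lower in all iTreg libraries than in Treg and naive libraries.

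By gene part, lower members were found at the start and over the body in larger shares than for all genes. At the start (promoter or 5′ UTR), 10 of 28 members were lower in TGFβ iTreg than in naive cells (14.5% of all gene starts), 11 in RA+VitC iTreg (18.5%) and 12 in Treg (11.4%). Over the body, 10 of 29 were lower in TGFβ iTreg (16.2% of all gene bodies), 17 in RA+VitC iTreg (23.8%) and 11 in Treg (16.8%). In intergenic regions, 3 of 23 were lower in TGFβ iTreg (8.22%), 7 in RA+VitC iTreg (20.9%) and 4 in Treg (15.2%). Higher parts were fewer, with 3 of 28, 3 of 28 and 2 of 28 starts (13.1%, 22% and 13% of all) in TGFβ iTreg, RA+VitC iTreg and Treg. Bodies were higher for 3, 1 and 3 of 29 members (18.5%, 25.9% and 17.4% of all), and intergenic parts for 2, 4 and 1 of 23 (25.3%, 28.9% and 18.4% of all), in TGFβ iTreg, RA+VitC iTreg and Treg.

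In RA+VitC iTreg over TGFβ iTreg, 3 starts were higher and 5 lower of 28 (9.36% and 3.21% of all gene starts), 0 bodies higher and 6 lower of 29 (10.7% and 7.36%), and 1 intergenic part higher and 3 lower of 23 (5.65% and 9.44%). In TGFβ iTreg over Treg, 5 starts were higher and 7 lower (11% and 12.5%), 4 bodies higher and 8 lower (15.7% and 12.9%), and 2 intergenic parts higher and 1 lower (21.9% and 5.98%). In RA+VitC iTreg over Treg, 2 starts were higher and 9 lower (19.6% and 15.9%), 3 bodies higher and 11 lower (23.7% and 20.2%), and 4 intergenic parts higher and 5 lower (24.5% and 17.5%).

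**Figure D4:**
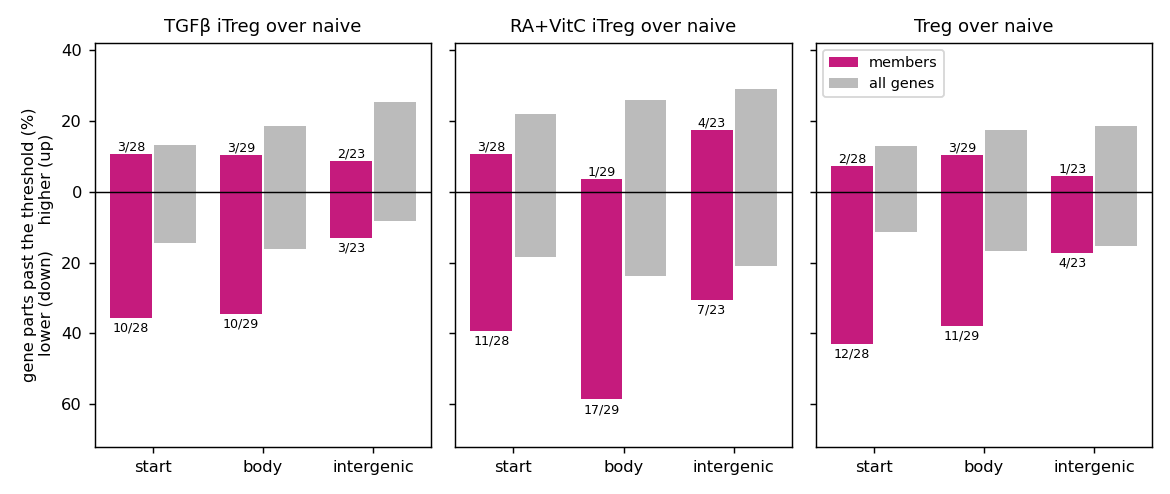
Share of gene parts past the threshold over naive cells (y axis, %, higher above 0 and lower below) at the start, body and intergenic regions, for members (coloured, with counts) and for all genes (grey). The largest share of lower member parts is over the body in RA+VitC iTreg, 17 of 29, where 23.8% of all gene bodies were lower.

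Of the 193 regions tested, 22 were higher and 31 lower in TGFβ iTreg than in naive cells (13.1% and 8.22% of all 135412 regions), 31 higher and 60 lower in RA+VitC iTreg (21.9% and 15.8%), and 13 higher and 42 lower in Treg (13% and 10.1%). The 14 Ifitm1 and Ifitm3 regions supplied 12 of the 22 and 13 of the 31 higher regions in the iTreg groups. The count of 31 fell to 20 without the first TGFβ iTreg library, that of 60 to 31 and 30 without the first or second RA+VitC iTreg library, and that of 13 to between 4 and 8 without either RA+VitC iTreg library, the second Treg library or either naive library. With DESeq2, 22 regions were lower in RA+VitC iTreg, and 5 higher and 10 lower in Treg. Regions of 1 gene passed the threshold in both directions in 4 of 37 members in TGFβ iTreg, 9 in RA+VitC iTreg and 2 in Treg, where 16.2%, 25.6% and 13.3% of 14737 genes did so. Usp18 had such a split, with its start region (mm9 chr6:121186541-121204102) at 70.8 CPM in TGFβ iTreg against 105 CPM in naive cells and a body region (mm9 chr6:121218472-121222135) at 34.8 against 21.6 CPM. In RA+VitC iTreg over TGFβ iTreg, 6 regions were higher and 6 lower (4.56% and 1.98% of all regions). Without 1 library at a time these counts ranged from 0 to 6 and from 1 to 6, the lowest without the first and the second TGFβ iTreg library. In TGFβ iTreg over Treg, 17 regions were higher and 22 lower (9.58% and 5.82%), with 13 and 12 lower without the first or second TGFβ iTreg library. In RA+VitC iTreg over Treg, 29 regions were higher and 35 lower (17.8% and 11.4%), with 21 lower without either RA+VitC iTreg library.

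Between the iTreg groups, more members were lower than higher where retinoic acid and vitamin C had been added. In RA+VitC iTreg over TGFβ iTreg, 1 member was higher and 7 were lower of 37, against 12.3% and 10.8% of all genes, with medians of -0.07 over members and -0.01 over all genes. The lower members were Oas2 (-0.81 ± 0.20, adjusted p = 0.0011), Ifit3 (-0.77 ± 0.14, 2.8e-06), Ifi27l2a (-0.63 ± 0.17, 0.0029), Xaf1 (-0.59 ± 0.20, 0.018), Ifitm3 (-0.56 ± 0.08, 3.5e-09), Rtp4 (-0.55 ± 0.17, 0.011) and Oasl2 (-0.52 ± 0.18, 0.025). Without the second TGFβ iTreg library 3 were lower, the calls at Oas2, Ifi27l2a, Rtp4 and Oasl2 being lost (adjusted p = 0.055, 0.091, 0.18 and 0.069). The higher member, Psmb9 (0.38 ± 0.15, adjusted p = 0.049), was lost under 9 alternatives, among them leaving out either TGFβ iTreg library, the first RA+VitC iTreg library or the second naive library.

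Against sorted Treg, members with less 5hmC outnumbered those with more in both iTreg groups. In TGFβ iTreg over Treg, 6 members were higher and 15 lower, against 20.7% and 15.2% of all genes, and in RA+VitC iTreg over Treg 5 were higher and 16 lower, against 26.5% and 23.4%. The medians were -0.34 and -0.24 over members and -0.02 over all genes in both. These 2 comparisons share the Treg libraries. Isg15 gave -1.35 ± 0.23 in TGFβ iTreg cells and -1.63 ± 0.19 in RA+VitC iTreg over Treg, Irf9 -1.05 ± 0.14 and -1.10 ± 0.11, and Trim25 -0.93 ± 0.10 and -0.93 ± 0.08. Eif2ak2 gave -0.85 ± 0.19 and -0.83 ± 0.15, and Ifih1 -0.47 ± 0.13 and -0.81 ± 0.11. Ifitm3 was higher by 3.42 ± 0.10 and 2.86 ± 0.09, Ifitm1 by 2.32 ± 0.10 and 2.15 ± 0.09, and Oas3 by 0.66 ± 0.13 and 0.57 ± 0.11 on the log2 scale.

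In the input libraries, which were not enriched, 0 of 35 members tested passed the threshold in the 6 comparisons (edgeR, Irf7 and Mx1 being too low to test). Of all 12825 genes tested in the inputs, only 0 to 36 passed it per comparison, so the absence of member calls is not particular to the list. At an unadjusted p under 0.05 there were 0 to 4 members per comparison, beside 654 to 1017 of all genes. Ifitm3 input averaged 32.7 CPM in TGFβ iTreg, 41.8 CPM in RA+VitC iTreg, 27.4 CPM in Treg and 41.1 CPM in naive cells. The median ratio of TMM-scaled pull-down CPM to unscaled input CPM over the 37 members was 0.913 in TGFβ iTreg, 0.822 in RA+VitC iTreg, 1.04 in Treg and 1.07 in naive cells.

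The receptors, kinases and inducers upstream of these genes were counted by the same threshold, which 23.4% of all genes passed as higher and 18.1% as lower in TGFβ iTreg over naive cells, 29.2% and 26.6% in RA+VitC iTreg, and 20.3% and 18.9% in Treg. Of 12 receptor and signalling genes, 4 were higher and 4 lower in TGFβ iTreg than in naive cells, 6 higher and 5 lower in RA+VitC iTreg, and 4 higher and 3 lower in Treg. Socs1, the feedback inhibitor of JAK kinases, was higher by 1.53 ± 0.09 in TGFβ iTreg cells and 1.56 ± 0.07 in RA+VitC iTreg, and Ptpn2, a phosphatase that acts on STAT proteins, by 0.74 ± 0.07 and 0.82 ± 0.06. Ifngr2, a chain of the type II interferon receptor, gave -0.48 ± 0.08 and -0.53 ± 0.07. Of 13 genes of sensing and induction tested, 3 were higher and 4 lower in TGFβ iTreg, 6 higher and 1 lower in RA+VitC iTreg, and 6 higher and 1 lower in Treg, with Mavs, the adaptor of RIG-I and MDA5, at 1.04 ± 0.13 and 1.40 ± 0.10 in TGFβ iTreg and RA+VitC iTreg. Of the 5 interferon genes tested, Ifng was the 1 called in TGFβ iTreg cells (1.31 ± 0.07) and in RA+VitC iTreg (0.48 ± 0.07).

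A further 50 interferon-stimulated genes outside the list, 40 of them tested, can be read beside the same shares of all genes. Of these 40, 11 were higher and 10 lower in TGFβ iTreg than in naive cells (median -0.16, all genes -0.02), 14 higher and 17 lower in RA+VitC iTreg (median -0.06, all genes -0.02), and 9 higher and 9 lower in Treg (median -0.07, all genes 0). Tnfsf10 (TRAIL) had the largest gain in both iTreg groups, 1.68 ± 0.08 in TGFβ iTreg cells and 2.15 ± 0.06 in RA+VitC iTreg. The largest losses were at Tapbp in TGFβ iTreg (-1.03 ± 0.17) and at the helicase Ddx60 in RA+VitC iTreg (-1.24 ± 0.13).

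Markers of other cell types moved with some of these groups. Reads over the CD8 and NK cell list (5 of 6 genes with regions) summed to 140 to 145 CPM in TGFβ iTreg, 103 to 107 CPM in RA+VitC iTreg, 232 to 241 CPM in Treg and 303 to 305 CPM in naive cells. The myeloid and dendritic cell list (6 of 6) summed to 263 CPM in both TGFβ iTreg libraries, 160 to 180 CPM in RA+VitC iTreg, 256 to 260 CPM in Treg and 347 to 350 CPM in naive cells. Flt3 and Itgam made up most of that sum and were lower in all 3 groups than in naive cells, by log2 values of -0.91, -1.55 and -0.74 for Flt3 and -0.41, -0.97 and -0.34 for Itgam in TGFβ iTreg, RA+VitC iTreg and Treg. Zbtb46 was higher in all 3 (1.53, 0.83 and 1.09), and Csf3r was higher in TGFβ iTreg and RA+VitC iTreg (2.02 and 1.25) and gave -0.35 in Treg (adjusted p = 0.45). The plasmacytoid dendritic cell list (4 of 6, Bst2 among them) summed to 447 to 462 CPM in TGFβ iTreg, 492 to 505 CPM in RA+VitC iTreg, 430 to 445 CPM in Treg and 476 to 503 CPM in naive cells. Of the other myeloid genes, Lyz2 averaged 2.17, 0.685, 0.832 and 1.21 CPM and Csf1r 5.58, 2.6, 3.47 and 2.93 CPM in TGFβ iTreg, RA+VitC iTreg, Treg and naive cells, with no call over naive cells. The CD4 and T cell identity list (5 of 6) itself summed to 290 to 374 CPM in TGFβ iTreg, 366 to 367 CPM in RA+VitC iTreg, 420 to 443 CPM in Treg and 527 to 528 CPM in naive cells. The part of these genes in the result was not tested.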

How the data were processed

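The authors deposited raw counts of reads in the union of broad MACS2 peaks (q 0.01 and mm9 in the file's name and column names), per library. The submitters' processing notes name MACS2 (2.1.0.20151222), SAMtools (1.7), Trim Galore (0.4.2) and bcl2fastq (2.20.0.442). The aligner and counting tool were not given in the sources used here. The same holds for peak calling on single or pooled libraries, which bears on regions of the shallower iTreg libraries. Counts were summed per assigned symbol and per gene part, so a sum can mix regions that move in opposite directions. In 24 cases, over 17 members, a region carried a member's gene ID but not its symbol, and only some of these are described. One edgeR 4.0.16 model (R 4.3.3) held all 8 pull-downs: TMM, filterByExpr (minimum count 10), the quasi-likelihood test (residual df 4), Benjamini-Hochberg over all genes, regions or gene parts, threshold 0.05. Adjusted p-values are from this fit unless DESeq2 1.42.0 is named. Pull-down CPM use TMM-scaled totals, fitted separately for gene sums, gene parts and regions, and floors use unscaled totals. The test was checked on simulated counts. Alternatives and left-out libraries are in the closing section.

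The members and lists were chosen with earlier results of these data known. Values are given in every pull-down library for members past the threshold with an absolute log2 fold change of at least 1 in any comparison, and for the 2 largest and 2 smallest called changes per comparison. The spiked amplicons were not analysed here, so values are relative within a library. One gene of the pathway lists is not reported here, though the counts of its list include it.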

Additional observations from a re-analysis of the deposited data

How the results depend on the processing

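Of the 122 calls of members over the 6 comparisons, 76 held under every alternative run and 46 were lost under at least 1; 1 was reversed, Psmb8 in RA+VitC iTreg over Treg, which gave -0.34 when regions were taken by gene ID (an alternative added after seeing the data). DESeq2 lost 24 calls, thinning to equal depth 30 of 120, transcript-overlapping regions only 10, gene IDs 5, library size without TMM 5, the replicate block 2, no filter on low counts 1 and RLE size factors 0. Without TMM the median of all genes shifted to -0.18 in RA+VitC iTreg over naive cells, and 38.6% of all calls there were higher, against 52.4% with TMM (35.3% against 53.1% over Treg, 34.8% against 53.2% over TGFβ iTreg, and 47.1% against 57.7% for TGFβ iTreg over Treg); 2 members were then higher in RA+VitC iTreg than in naive cells. Member counts that moved by more than 1.5 times were, in Treg over naive cells, 5 higher by gene ID, and 10 lower with DESeq2 and 9 with thinning; in RA+VitC iTreg over Treg, 3 higher with thinning; and in RA+VitC iTreg over TGFβ iTreg, 4 higher by gene ID and 0 higher without TMM, with DESeq2, with the replicate block, with thinning and with transcript-overlapping regions only. Over all genes in Treg over naive cells, 3035 were higher and 2823 lower with edgeR, 1804 and 1443 with DESeq2, and 1309 and 1130 with thinning. Lower calls over all genes also moved in RA+VitC iTreg over Treg (5376 without TMM, 2150 with DESeq2 and 1991 with thinning, which also gave 2600 higher, against 3492 lower and 3961 higher), in RA+VitC iTreg over naive cells (2460 with thinning, against 3974), in TGFβ iTreg over Treg (1407 with DESeq2 and 1505 without the second TGFβ iTreg library, against 2268) and in RA+VitC iTreg over TGFβ iTreg (1055 and 972 under the same changes, against 1617). The cause of these changes was not tested. Leaving out 1 library at a time gave 3 to 5 higher members in TGFβ iTreg over naive cells, and 0 to 1 higher and 3 to 7 lower in RA+VitC iTreg over TGFβ iTreg.

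For regions, DESeq2 gave 5 higher and 10 lower in Treg over naive cells, 22 lower in RA+VitC iTreg over naive cells, 2 higher in RA+VitC iTreg over TGFβ iTreg (6 with edgeR), 14 lower in TGFβ iTreg over Treg (22) and 18 lower in RA+VitC iTreg over Treg (35). Leaving out 1 library gave 4 to 10 higher regions in Treg over naive cells, 20 to 33 lower in TGFβ iTreg over naive cells, 30 to 60 lower in RA+VitC iTreg over naive cells, 0 to 6 higher and 1 to 6 lower in RA+VitC iTreg over TGFβ iTreg, 12 to 23 lower in TGFβ iTreg over Treg and 21 to 40 lower in RA+VitC iTreg over Treg. The library titles of TGFβ iTreg and RA+VitC iTreg share the same tokens, and those of Treg and naive cells the same numbers. The labels do not say whether these mark pairs, so they were not taken to pair the samples. The differences between replicates correlated at -0.0161 between Treg and naive cells and 0.0095 between the iTreg groups over 14952 genes, and the replicate block ended no call of a member but the 2 above. The shallow TGFβ iTreg libraries limit what can be seen at Irf7, Mx1 and single regions.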
